A study of Mus musculus with 12 samples.

Results

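Alveolar macrophages are the resident phagocytes of the airspaces, and a small set of signals and transcription factors gives them their identity. The 10 genes described here belong to that set. They were taken by gene symbol from the deposited table, which holds 55291 symbols, and all 10 were found. They encode the GM-CSF receptor chains (Csf2ra, Csf2rb and its relative Csf2rb2), the nuclear receptor PPAR-gamma (Pparg), the transcription factors C/EBP-beta (Cebpb), PU.1 (Spi1), Bhlhe40 and Bhlhe41, and both chains of the TGF-beta receptor (Tgfbr1 and Tgfbr2).

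RNA had been measured in alveolar macrophages flow-sorted from the lungs of female C57BL6/NJ mice aged 8 to 11 weeks. Mice had breathed filtered air (n = 6) or 0.8 ppm ozone (n = 6) for 4 h a day on 4 days in a row, and lungs were taken 3 days after the last exposure. Cells had been sorted in 2 batches with 3 mice of each group in each. Each library came from the sorted cells of 1 mouse.

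GM-CSF is the cytokine that epithelial cells of the lung supply to fetal monocytes. It acts through a receptor of an alpha chain and a shared beta chain, signals through JAK2 and STAT5, and turns on PPAR-gamma, which drives the lipid-handling program of alveolar macrophages. TGF-beta, made in part by the macrophages themselves, also acts upstream of PPAR-gamma and keeps the population alive. PU.1 and C/EBP-beta are required for macrophage differentiation, and Bhlhe40 and Bhlhe41 are repressors that maintain the identity and the self-renewal of the resident cells.

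Values are on a variance-stabilized log2 scale, and the mean of the 6 filtered-air mice is 0 in every gene. The abundance of a gene was therefore not kept, and levels cannot be compared between genes. The transformation shrinks differences of genes with few reads, so a difference may understate the change in reads. Mice of a batch that share the lowest value of a gene were read as mice without a read for it, and none of the 10 genes had such mice. The listed markers of alveolar macrophages, Marco and Siglecf among them, had no such mice either in 16 of 16 cases. Of those 16 markers Chil3 (0.25) and Car4 (0.32) were called higher after ozone and Ear1 (-0.28) and Krt79 (-0.35) lower, 25% of the list where 4.25% of all genes tested were called. Of 70 markers of other cell types, 62 passed the filter on low values, and whether their reads came from other cells or from the macrophages was not tested. The 8 that did not pass were Ly6g, Ngp and Camp of neutrophils and Prg2, Epx, Cpa3, Mcpt8 and Fcer1a of eosinophils, mast cells and basophils. After ozone 44 of the 62 were lower and 18 higher, where 52.0% of all genes tested were lower, and 1 was called, the epithelial marker Epcam at -0.55. The summed level of those markers, as a mean over the 62, ranged from -0.17 to 0.26 in filtered-air mice and from -0.17 to 0.054 in ozone mice. Filtered-air mouse 4 was the highest and also had the lowest RNA integrity number, 8.9, against a range of 9.2 to 9.7 after ozone. Because sorted cells were measured in bulk, a lower share of cells that express a gene and less RNA per cell cannot be told apart.

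Csf2rb and Csf2rb2 are neighbours and close copies, and their sequences are shown because they bear on how far the values of these genes can be separated. In GENCODE M21, on GRCm38 (the mm10 build that the submitters' processing notes name), Csf2rb lies on the plus strand at chr15:78325752-78353847 and Csf2rb2 on the minus strand at chr15:78282507-78305721. Their longest coding sequences, of 2688 and 2634 bases, were identical at 95.2% of the 2628 aligned bases without a gap. Bhlhe40 and Bhlhe41, the other related pair, were identical at 67.8% of 1089 aligned bases. The longest stretch without a difference was 242 bases within 1 exon of each gene, at chr15:78348577-78348818 for Csf2rb and chr15:78284630-78284871 for Csf2rb2. It reads the same in both genes, in the direction of the coding strand:
Csf2rb and Csf2rb2: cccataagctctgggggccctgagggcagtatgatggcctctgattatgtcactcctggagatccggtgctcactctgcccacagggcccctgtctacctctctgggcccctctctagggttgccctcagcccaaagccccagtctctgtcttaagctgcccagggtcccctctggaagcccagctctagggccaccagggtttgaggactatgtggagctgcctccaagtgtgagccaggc

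The window of 90 bases with the most differences held 16, shown in capitals, at chr15:78338897-78338986 for Csf2rb and chr15:78294345-78294434 for Csf2rb2, each within 1 exon:
Csf2rb: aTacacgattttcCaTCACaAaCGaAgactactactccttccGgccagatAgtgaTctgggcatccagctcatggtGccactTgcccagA
Csf2rb2: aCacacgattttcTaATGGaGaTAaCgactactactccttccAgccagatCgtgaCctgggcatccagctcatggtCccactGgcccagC

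The libraries were sequenced as paired reads of 50 bases. Among all distinct stretches of 50 bases in the annotated transcripts of Csf2rb, 12.3% also occur in transcripts of Csf2rb2, and 18.4% of those of Csf2rb2 occur in Csf2rb. A single read from these stretches cannot be assigned to 1 gene from its own sequence, although its mate may place it. The values of both genes are therefore uncertain, to an extent that was not measured. For Csf2ra, Pparg and Spi1 the share that occurs in any other gene was 0%, and for Tgfbr1 and Tgfbr2 it was 0.015% and 0.77%. Cebpb and Bhlhe41 overlap genes on the opposite strand, with 18.1% of their stretches in Tmem189 and 16.4% in Gm43909, and Bhlhe40 shares 1.53% with the antisense gene 0610040F04Rik. The library kit keeps the strand, but whether the counting used it is not given in the sources used here. The ozone differences of Tmem189 (-0.022, 95% interval -0.10 to 0.061) and Gm43909 (0.041, interval -0.058 to 0.14) did not pass the test.

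None of the receptor, nuclear receptor or lineage genes was called changed after ozone: 0 of the 10 had an adjusted p under 0.05 in limma. Over all 19633 genes tested 4.25% passed, so 0 of 10 is close to the background. At an unadjusted p under 0.05 there were 2 of the 10, Bhlhe41 and Tgfbr2, against 16.7% of all genes. The median difference over the 10 was -0.013, and over all genes tested it was -0.0033. Of the 10 genes 4 were higher and 6 lower in the ozone mean. The largest difference was that of Bhlhe41, at 0.22, and the smallest called difference in the whole table was 0.12.

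**Figure D1:**
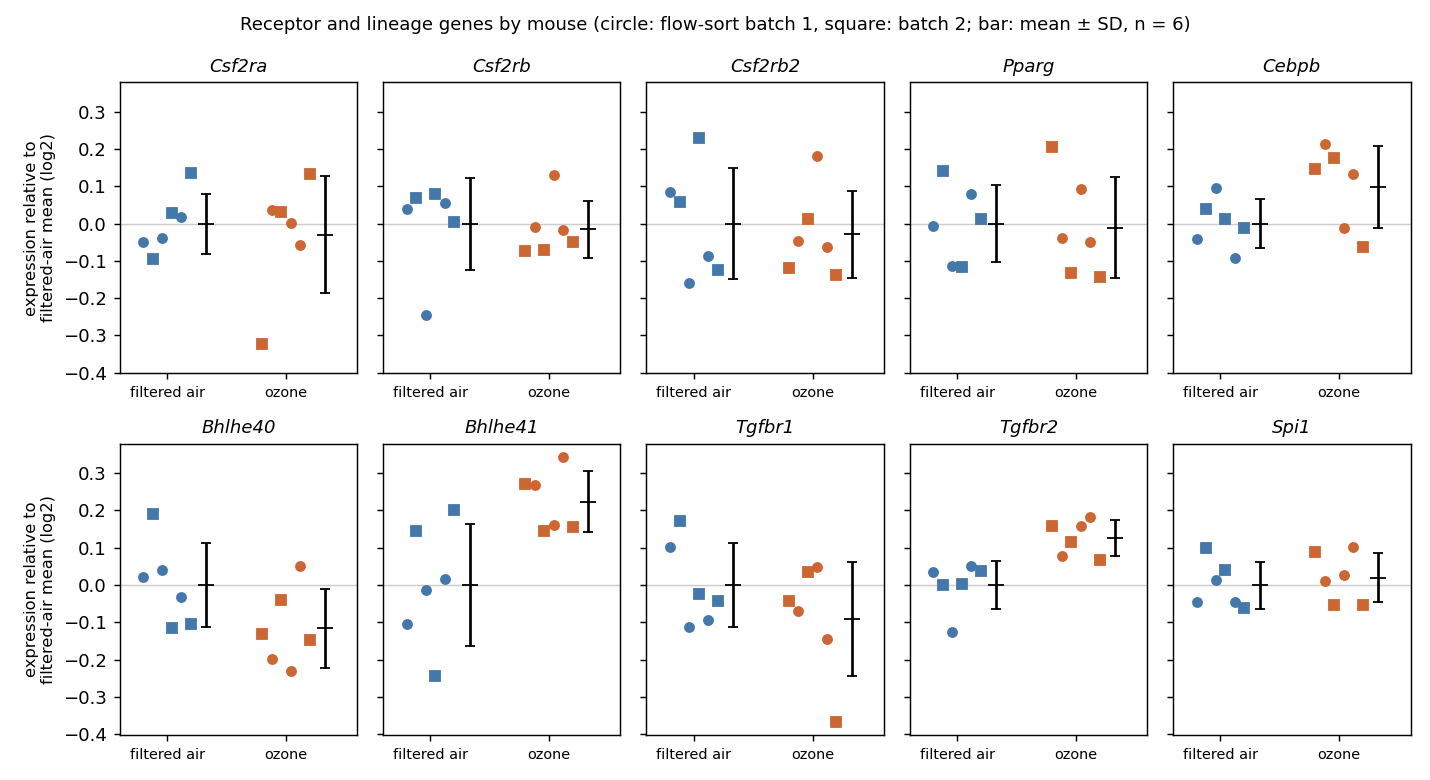
Expression of the 10 genes by mouse, on the deposited log2 scale relative to the filtered-air mean, with 1 panel per gene; circles are mice of flow-sort batch 1, squares mice of batch 2, and black bars the mean ± SD of 6 mice. Tgfbr2 is the gene whose groups do not overlap, with the lowest ozone mouse at 0.066 and the highest filtered-air mouse at 0.052.

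The ligand-binding alpha chain of the GM-CSF receptor is encoded by Csf2ra, at chr19:61223957-61228429. Filtered-air mice lay between -0.094 and 0.14 with a median of -0.010, and ozone mice between -0.32 and 0.13 with a median of 0.017. The groups overlapped, and the low end of the ozone range was a single animal, ozone mouse 1, at -0.32. The difference of the means was -0.030 (SE 0.066, 95% interval -0.17 to 0.11, limma's adjusted p = 0.885), and without ozone mouse 1 it was 0.035.

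Csf2rb encodes the beta chain that the receptors for GM-CSF, IL-3 and IL-5 share. Its filtered-air values ran from -0.25 to 0.079 (median 0.048) and its ozone values from -0.074 to 0.13 (median -0.033). Filtered-air mouse 3 stood far below its group, and ozone mouse 4 above its own. The difference was -0.015 (SE 0.057, interval -0.14 to 0.11, limma's adjusted p = 0.939).

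Csf2rb2 encodes a second beta chain of the mouse, which serves the IL-3 receptor. It ranged from -0.16 to 0.23 in filtered air (median -0.015) and from -0.14 to 0.18 after ozone (median -0.054). The highest filtered-air value was that of mouse 4, which was also highest in markers of other cells, and the part of those cells in this value was not tested. The difference was -0.029 (SE 0.071, interval -0.18 to 0.12, limma's adjusted p = 0.896), and without filtered-air mouse 4 it was 0.022. None of the receptor genes thus differed by more than the spread between mice, and their intervals ran from -0.18 to 0.12.

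**Figure D2:**
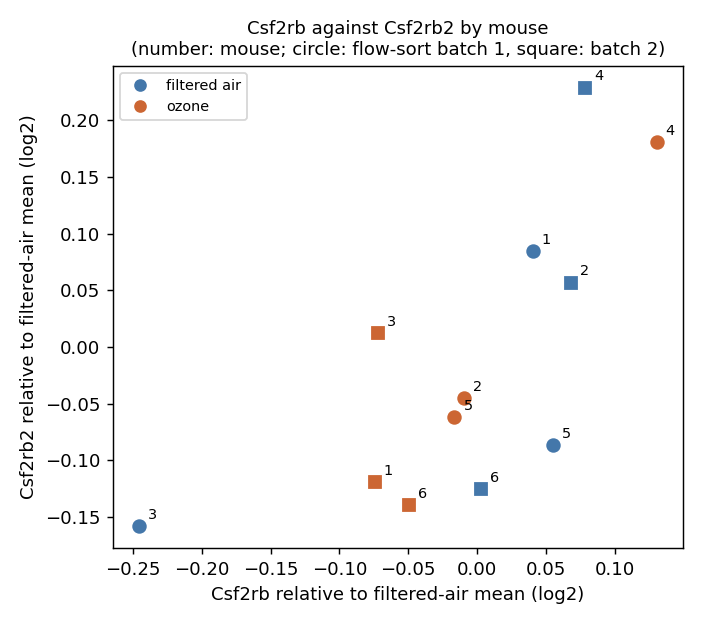
Csf2rb against Csf2rb2 in the 12 mice, both on the deposited log2 scale relative to the filtered-air mean; numbers are the mice of each group, circles flow-sort batch 1 and squares batch 2. Filtered-air mouse 3 is lowest in both genes and the number 4 mice of both groups are highest, and neither axis separates ozone from filtered air.

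Both beta chains varied together from mouse to mouse. Over the 12 mice, with the mean of each exposure group subtracted, their values had a Pearson r of 0.70 and a Spearman rho of 0.76, the highest r of the 45 pairs among the 10 genes, whose median r was 0.14. It was 0.84 within the ozone mice and 0.64 within the filtered-air mice (n = 6 each), 0.79 within batch 1 and 0.68 within batch 2, and 0.55 without the 2 mice farthest from the median of Csf2rb. The genes of the pair share the library and the sequence shown above, and the part of shared reads in this correlation was not tested. Csf2rb against Tgfbr2 came next with an r of 0.70, but its rho was 0.29 and its r without the 2 farthest mice 0.23, so it rested on those mice. In the batches it was 0.83 and 0.099. Csf2ra went the other way from Spi1 (r = -0.68, rho = -0.71, r without the 2 farthest mice -0.64), although r was -0.16 in batch 1 and -0.79 in batch 2. It also went the other way from Pparg (r = -0.66, rho = -0.55), but r was -0.22 without the 2 farthest mice, 0.47 in batch 1 and -0.84 in batch 2, so it had opposite signs in the batches. The means subtracted were those of each exposure group over both batches. An r within a batch therefore also holds any gap between the ozone differences of the batches. Among the 10 genes that gap was widest in Csf2rb2 and Csf2rb. All these values are descriptions of 12 libraries.

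Among the genes around the receptor, the ligand gene Csf2 was near the limit of detection. Of the 12 mice, 3 shared the lowest value of batch 2 (filtered-air mice 2 and 6 and ozone mouse 6), and filtered-air mouse 1 alone held the lowest of batch 1, at -0.10. The difference of Csf2 was 0.051 (SE 0.049, interval -0.055 to 0.16), and without single mice it ranged from 0.027 (without filtered-air mouse 1) to 0.094 (without filtered-air mouse 4). Of the 33 listed genes of GM-CSF and STAT5 signalling, 31 were tested. Of those 31, 0 were called higher and 2 lower, beside 2.41% of all genes called higher and 1.84% called lower, and their median difference was -0.025. The kinase Jak2 had a difference of -0.076 (SE 0.042, limma's adjusted p = 0.396), Stat5a of -0.025 (SE 0.039, adjusted p = 0.822), Stat5b of -0.0033 (SE 0.047, adjusted p = 0.986) and the IL-3 receptor alpha chain Il3ra of -0.030 (SE 0.067, adjusted p = 0.883). Without single mice the Stat5a difference ranged from -0.042 (without ozone mouse 5) to -0.0024 (without filtered-air mouse 6).

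The called gene with the largest fall in that list was Cish, a suppressor of cytokine signalling and a textbook target of STAT5. It lay between -0.25 and 0.13 in filtered air and between -0.51 and -0.15 after ozone, and 4 of 6 ozone mice were below every filtered-air mouse. Cish fell by 0.38 (SE 0.077, limma's adjusted p = 0.0122), and its differences in the batches were -0.35 and -0.41. The call was lost after quantile normalization (-0.32, adjusted p = 0.134). That setting gives every mouse the same distribution of values and can itself shrink ozone differences in values centred on filtered air. Stat3, a transcription factor of many cytokine receptors, fell by 0.17 (SE 0.045, limma's adjusted p = 0.0484). It lay between -0.14 and 0.099 in filtered air and between -0.29 and -0.10 after ozone. The call was lost in 18 of the 23 alternative settings, among them each fit without a single mouse other than filtered-air mouse 3, and over those 12 fits the adjusted p ranged from 0.0200 to 0.0988.

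Pparg, at chr6:115360951-115490399, is the gene of the receptor that GM-CSF and TGF-beta both induce in these cells. Filtered-air mice ranged from -0.12 to 0.14 (median 0.0040) and ozone mice from -0.14 to 0.21 (median -0.043). The ranges lay on top of each other, and the highest mouse was ozone mouse 1, the same animal that was lowest in Csf2ra. The difference was -0.011 (SE 0.065, interval -0.15 to 0.13, limma's adjusted p = 0.962). Its sign turned in 5 of the 23 alternative settings, between -0.059 and 0.021 in fits without single mice, with no call in any.

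Of 30 listed partners and targets of PPAR-gamma, all were tested, 0 were called higher and 1 lower, with a median difference of -0.015. That is 3.33% of the list, close to the 4.25% called among all genes tested. Called or not, 14 of the 30 were higher after ozone and 16 lower. The called gene was Cd36, the fatty acid and scavenger receptor that PPAR-gamma is known to induce. It ranged from -0.076 to 0.068 in filtered air and from -0.60 to -0.31 after ozone, with a median of -0.43. All 6 ozone mice were below all 6 filtered-air mice, and Cd36 fell by 0.46 (SE 0.051, limma's adjusted p = 0.000402), by 0.49 in batch 1 and by 0.42 in batch 2. Fabp4, the fatty acid-binding protein of alveolar macrophages and another known target, did not pass, at -0.15 (SE 0.078, interval -0.31 to 0.020, limma's adjusted p = 0.378). Rxra, the partner with which PPAR-gamma binds DNA, had a difference of 0.031 (SE 0.049, adjusted p = 0.828), which ranged from 0.0073 (without filtered-air mouse 5) to 0.059 (without filtered-air mouse 1).

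Spi1, which encodes PU.1, the factor that opens the myeloid enhancers of macrophages, lies at chr2:91082390-91115756. Its filtered-air values spanned -0.062 to 0.10 (median -0.017) and its ozone values -0.054 to 0.10 (median 0.018). Its spread was among the narrowest of the 10 genes, with an SD of 0.063 in filtered air and 0.067 after ozone. The difference was 0.020 (SE 0.042, interval -0.071 to 0.11, limma's adjusted p = 0.878), and without single mice it ranged from 0.0017 (without ozone mouse 5) to 0.042 (without filtered-air mouse 2).

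Cebpb, a gene of 1504 bases at chr2:167688915-167690418, encodes a leucine zipper factor of macrophage differentiation. It lay between -0.093 and 0.096 in filtered air (median 5.2e-05) and between -0.062 and 0.21 after ozone (median 0.14). In 4 of 6 ozone mice it was above every filtered-air mouse, and ozone mice 4 and 6 were inside the filtered-air range. The difference of 0.099 (SE 0.052, interval -0.013 to 0.21, limma's adjusted p = 0.374) did not pass, and it was positive in all 23 alternative settings. Its relative Cebpa had a difference of -0.042 (SE 0.049, limma's adjusted p = 0.749), which ranged from -0.064 (without ozone mouse 1) to -0.011 (without filtered-air mouse 1).

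The paired repressors Bhlhe40 and Bhlhe41 had differences of opposite sign. Bhlhe40, at chr6:108660629-108666925, ranged from -0.12 to 0.19 in filtered air (median -0.0055) and from -0.23 to 0.051 after ozone (median -0.14). Of the ozone mice 4 of 6 were below every filtered-air mouse, and ozone mice 3 (-0.040) and 5 (0.051) were not. The difference was -0.12 (SE 0.060, interval -0.24 to 0.012, limma's adjusted p = 0.358), and without filtered-air mouse 2 it was -0.074.

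Bhlhe41, at chr6:145858243-145865558, ranged from -0.24 to 0.20 in filtered air (median 0.0019) and from 0.14 to 0.34 after ozone (median 0.21). In 3 of 6 ozone mice it was above every filtered-air mouse, and 1 filtered-air mouse, number 6, lay within the ozone range at 0.20. The filtered-air mice were widely spread, with an SD of 0.16 against 0.082 after ozone, and mouse 4 was the lowest at -0.24. The mean was higher after ozone by 0.22 (SE 0.068, interval 0.077 to 0.37), which as a plain log2 ratio would be 1.17-fold. The unadjusted p was 0.00549 and limma's adjusted p was 0.0877, so it did not pass. Of the 19633 genes tested 6.25% had a smaller p.

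Whether Bhlhe41 passed depended on single mice. It passed without filtered-air mouse 6 (0.27, adjusted p = 0.0321) and with the RNA integrity number as a covariate (0.19, adjusted p = 0.0338). Without filtered-air mouse 4 it was 0.17, and over the fits without a single mouse the adjusted p ranged from 0.0321 to 0.183. After quantile normalization Bhlhe41 was at 0.18 (limma's adjusted p = 0.439). In batch 2 alone, with fewer mice, limma's adjusted p was 0.754. It was positive in each of the 23 alternative settings, 0.29 in batch 1 and 0.16 in batch 2.

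The promoter of Bhlhe41 is shown because Bhlhe40 and Bhlhe41 proteins are known to bind the E-box CACGTG, also in front of their own genes. The RefSeq-based table on GRCm38.p6 held promoters of 7 of the 10 genes, 10 promoters in all, each from 250 bases before to 50 bases after an annotated start. The E-box, which reads the same on both strands, was found in 1 of the 10, that of Bhlhe41, and in 7.15% of all 32851 promoters of that length. The 250 bases before the start, on the minus strand at chr6:145865421-145865670, hold it in capitals, 153 bases before the RefSeq start. That start lies inside the gene as GENCODE M21 gives it above, so part of the stretch is within the GENCODE gene, and the E-box lies just outside it:
Bhlhe41: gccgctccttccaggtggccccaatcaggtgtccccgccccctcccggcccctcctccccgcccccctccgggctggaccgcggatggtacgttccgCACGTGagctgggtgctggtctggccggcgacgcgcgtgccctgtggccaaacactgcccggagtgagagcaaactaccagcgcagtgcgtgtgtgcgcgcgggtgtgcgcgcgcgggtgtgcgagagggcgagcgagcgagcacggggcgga

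Searched on both strands in the same way, the STAT motif TTCNNNGAA and the PU.1 motif GAGGAAGT each occurred in the Csf2rb2 promoter alone among the 10, and in 8.30% and 3.20% of all promoters. The C/EBP motif TTGCNNCAA, the SMAD motif GTCTAGAC and the PPAR direct repeat (AGGTCA, any 1 base, AGGTCA) occurred in 0 of the 10, and in 2.08%, 0.213% and 0.0396% of all promoters. The E-box and these matches lay in the promoters of different genes. A match is a run of letters and does not show that a factor binds there.

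Among 40 listed lineage transcription factors, all tested, 2 were called higher and 0 lower, and the median difference was -0.032. That is 5% of the list, close to the 4.25% called among all genes tested. The called genes were Fos and Atf3, stress-induced factors of the AP-1 and ATF families. Fos rose by 0.57 (SE 0.12, limma's adjusted p = 0.0136) and Atf3 by 0.37 (SE 0.064, limma's adjusted p = 0.00525), and in both genes all 6 ozone mice were above all 6 filtered-air mice. The difference of Fos was 0.31 in batch 1 and 0.83 in batch 2 (unadjusted p of the interaction = 0.0196, with 0% of all genes passing after adjustment), and that of Atf3 was 0.31 and 0.43. Fos did not pass with a variance trend (adjusted p = 0.0517), and after quantile normalization neither Fos (adjusted p = 0.140) nor Atf3 (adjusted p = 0.110) passed.

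Of the 5 genes of the other colony-stimulating factors and their receptors, 1 was called, Csf1r, which encodes the receptor for M-CSF. Over all genes tested 4.25% were called, 2.41% of them as higher, and a list of 5 genes is too short to compare with that share. It lay between -0.19 and 0.25 in filtered air and between 0.23 and 0.72 after ozone, with 5 of 6 ozone mice above every filtered-air mouse. Csf1r rose by 0.39 (SE 0.085, limma's adjusted p = 0.0181). The filtered-air mouse within the ozone range was number 4, and without it the difference was 0.44. After quantile normalization Csf1r did not pass (0.33, adjusted p = 0.0826). The ligand gene Csf1 had a difference of -0.18 (SE 0.081, limma's adjusted p = 0.281). Of the 8 listed monocyte markers and the 8 of interstitial macrophages, all were tested, 0 were called, and their median differences were -0.13 (3 higher, 5 lower) and 0.022 (4 higher, 4 lower). The part of such cells in the rise of Csf1r was not tested.

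**Figure D3:**
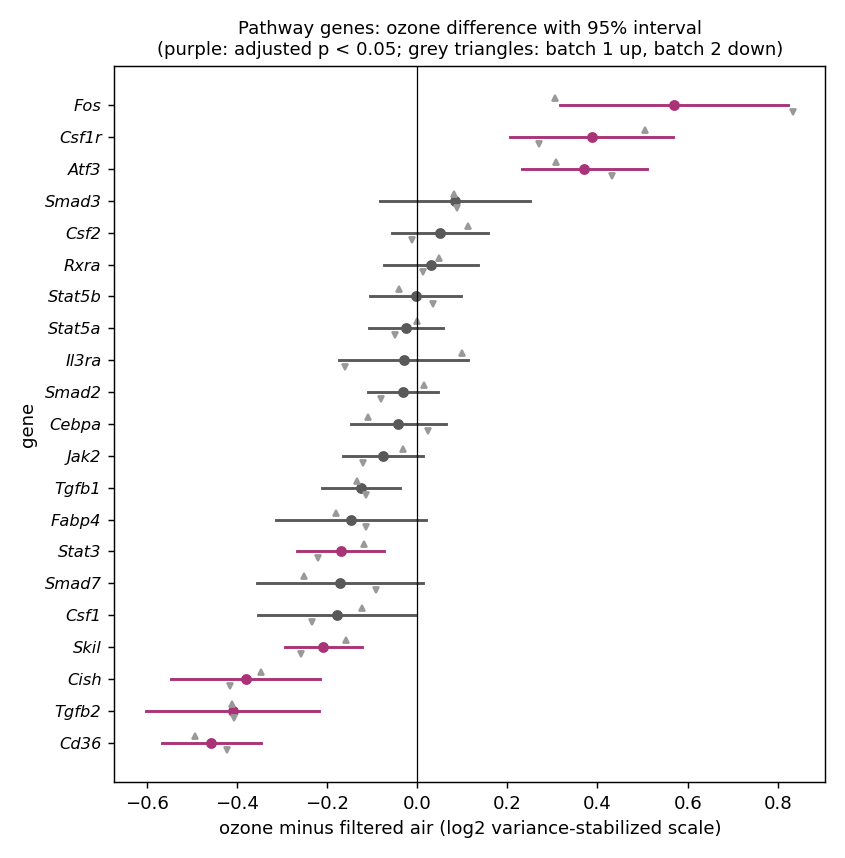
Ozone minus filtered air on the deposited log2 scale for 21 genes of the surrounding pathways, with points for the difference, lines for its 95% interval, purple for an adjusted p under 0.05, and grey triangles for batch 1 (pointing up) and batch 2 (pointing down). Cd36 is lowest at -0.46 and Fos highest at 0.57, while Stat5a, Stat5b and Rxra lie near 0.

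Tgfbr1 and Tgfbr2 encode the signalling and the ligand-binding chain of the TGF-beta receptor. Tgfbr2, at chr9:116084293-116175360, ranged from -0.13 to 0.052 in filtered air (median 0.019) and from 0.066 to 0.18 after ozone (median 0.14). All 6 ozone mice were above all 6 filtered-air mice, which held for 1 of the 10 genes and for 3.53% of all genes tested, or 1.96% with ozone the higher group. The mean was higher after ozone by 0.13 (SE 0.040, interval 0.042 to 0.21), 1.09-fold if read as a plain log2 ratio. The unadjusted p was 0.00641 and limma's adjusted p 0.0961, so the gene did not pass despite the separation.

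Filtered-air mouse 3 was the lowest in Tgfbr2, at -0.13, and the other filtered-air mice lay between -0.00085 and 0.052. Without it the difference was 0.098 (adjusted p = 0.179). In 23 of 23 alternative settings Tgfbr2 was higher after ozone, by 0.15 in batch 1 and by 0.10 in batch 2, and in 0 of them did it pass, the smallest adjusted p being 0.0594.

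Tgfbr1, at chr4:47353222-47414931, ranged from -0.11 to 0.17 in filtered air (median -0.033) and from -0.37 to 0.049 after ozone (median -0.056). The groups overlapped, and the lowest value was that of ozone mouse 6. The difference was -0.090 (SE 0.071, interval -0.24 to 0.061, limma's adjusted p = 0.600), and without ozone mouse 6 it was -0.029. The chains of this receptor thus had differences of opposite sign, of which neither passed.

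Of 32 listed genes of TGF-beta signalling 31 were tested, 0 were called higher and 2 lower, with a median difference of -0.013. That is 6.45% of the list, beside 4.25% of all genes tested, or 1.84% called lower. Over all pathway lists together 5.84% were called, close to the share of all genes. The ligand gene Tgfb2 ranged from -0.32 to 0.23 in filtered air and from -0.58 to -0.23 after ozone and fell by 0.41 (SE 0.090, limma's adjusted p = 0.0185). Skil, a repressor of SMAD proteins that TGF-beta itself induces, lay between -0.12 and 0.068 in filtered air and between -0.27 and -0.14 after ozone. The groups did not overlap, and Skil fell by 0.21 (SE 0.040, limma's adjusted p = 0.00886). After quantile normalization neither Tgfb2 (adjusted p = 0.210) nor Skil (adjusted p = 0.0757) passed.

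The main ligand gene of macrophages, Tgfb1, did not pass. It was between -0.082 and 0.089 in filtered air and between -0.19 and -0.056 after ozone, with 5 of 6 ozone mice below every filtered-air mouse, a difference of -0.12 (SE 0.040, limma's adjusted p = 0.113). Of the signal carriers, Smad2 had a difference of -0.032 (SE 0.036, adjusted p = 0.741) and Smad3 of 0.085 (SE 0.078, adjusted p = 0.669). The Smad2 value was -0.049 when ozone mouse 2 was left out and -0.012 when ozone mouse 6 was, and that of Smad3 ranged from 0.036 (without filtered-air mouse 2) to 0.14 (without filtered-air mouse 4). The inhibitor Smad7, a known target of the pathway, had a difference of -0.17 (SE 0.086, interval -0.36 to 0.014, adjusted p = 0.346), and ozone mouse 6 was the only ozone mouse above 0 in it, at 0.16.

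**Figure D4:**
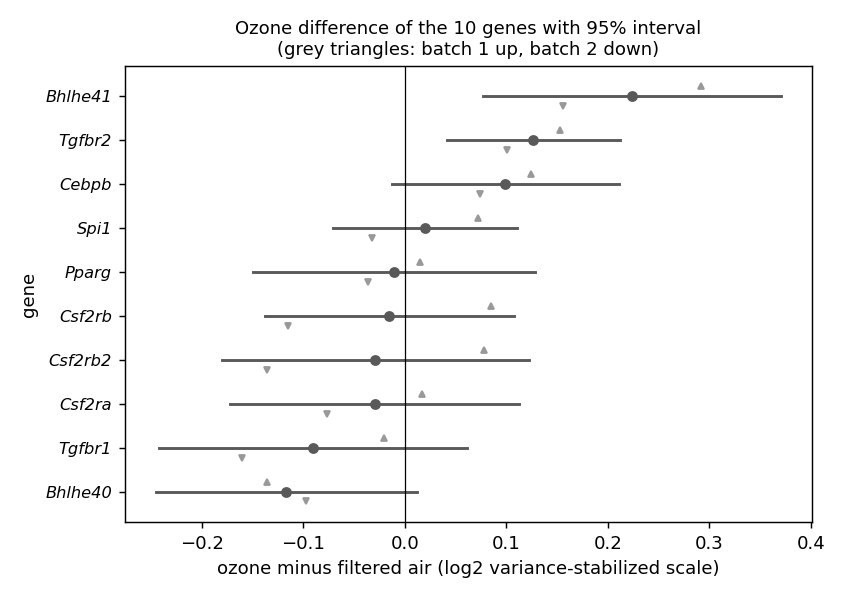
Ozone minus filtered air for the 10 genes on the deposited log2 scale, sorted by size, with points for the difference, lines for its 95% interval and grey triangles for batch 1 (pointing up) and batch 2 (pointing down). The intervals of Bhlhe41 (0.077 to 0.37) and Tgfbr2 (0.042 to 0.21) lie above 0, and those of the other 8 genes include it.

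The flow-sort batches were compared next. Csf2ra, Csf2rb, Csf2rb2, Pparg and Spi1 were higher after ozone in batch 1 and lower in batch 2, while the other 5 genes had the same sign in both, as did 63.7% of all genes tested. The widest gaps were those of Csf2rb2 (0.078 and -0.14) and Csf2rb (0.085 and -0.12). In limma's test of the interaction of exposure and batch 0 of the 10 genes passed, 0 had an unadjusted p under 0.05, and the smallest unadjusted p was 0.0801, for Csf2rb. Over all genes 0% passed in that test, with 510 genes at an unadjusted p under 0.05 and a smallest adjusted p of 0.320.

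Genes that followed the 10 genes most closely from mouse to mouse were found by the Pearson correlation over the 12 mice after subtraction of the group means, among 17158 genes with reads in all mice. They describe these libraries only, since the highest of so many correlations is high in any data. Nckap1l, a regulator of actin in blood cells, was closest to Csf2rb (r = 0.96), and Fn1, the gene of fibronectin and a listed monocyte marker, to Csf2rb2 (r = 0.97). Jagn1 was closest to Pparg (r = 0.95), Adamts10 to Csf2ra (r = 0.96), Pabpc4 to Spi1 (r = 0.94) and Ppih to Cebpb (r = 0.95). Rnps1, a splicing factor, was closest to Bhlhe41 (r = 0.95), Zfp787 to Bhlhe40 (r = 0.92), Tnfrsf26 to Tgfbr1 (r = 0.96) and Fndc3b to Tgfbr2 (r = 0.96). Without the 2 mice farthest from the median of the gene these values lay between 0.82, for Nckap1l, and 0.95, for Tnfrsf26.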

How the data were processed

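The deposited table gives log2 values for 12 mice, which the authors had variance-stabilized and corrected for batch, as the name of the deposited table states. The submitters' processing notes list cutadapt, STAR 2.7.7a, Salmon 1.5.2, DESeq2 1.26.0, limma 3.42.2, R 3.6.0 and mm10, without roles. The filtered-air mean was 0 in every gene, and 0 columns lacked a sample. Total reads per library are unknown.

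Genes were kept where at least 6 of 12 mice lay above the lowest value shared by mice of a batch, which left 19633 of 25444 genes that were not constant. Ozone was compared with filtered air in limma 3.58.1 (R 4.3.3) with flow-sort batch as covariate and no variance trend, with Benjamini-Hochberg adjustment over all genes kept and a threshold of 0.05. The pipeline was tested on simulated data. Alternatives changed the filter, prior, covariates, scaling, batch or mice.

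The 10 genes and the lists were chosen with earlier results of these data known. Named besides are 16 pathway genes fixed by name (1 more is not reported here), up to 5 further called genes per pathway list, and the 3 closest genes by correlation, of which the first is printed. The sequence comparison and motifs were chosen after the values were seen.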

Additional observations from a re-analysis of the deposited data

Results flagged for a closer look

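In each exposure group of 6 mice, the highest and the lowest mouse were compared with the rest of the group, for the 10 genes and the 21 named pathway genes. In 6 of 62 combinations of gene and group a mouse stood apart by the ratio of its gap to its neighbour over the whole range. Chance gives about 1 in 20.

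In Csf2rb, filtered-air mouse 3 stood apart at -0.25 (ratio 0.767), and the other filtered-air mice lay between 0.0032 and 0.079. Without it the ozone difference was -0.070 (limma's adjusted p = 0.455). In the same gene ozone mouse 4 stood apart at 0.13 (ratio 0.685), and without it the difference was -0.048.

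In Tgfbr2, filtered-air mouse 3 stood apart again, at -0.13 (ratio 0.705). It was the lowest filtered-air mouse in 4 of the 10 genes.

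In Csf2, filtered-air mouse 4 was high at 0.20 (ratio 0.636) and ozone mouse 6, at the shared lowest value of batch 2, low at -0.052 (ratio 0.675). Smad7 was high in ozone mouse 6 at 0.16 (ratio 0.750), without which the Smad7 difference was -0.24 (limma's adjusted p = 0.0756).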

How the results depend on the processing

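The count of 0 called genes among the 10 became 1 in 2 of 23 alternative settings, Bhlhe41 both times: with RNA integrity as a covariate and without filtered-air mouse 6 (range 0 to 1 without single mice). The 8 called genes of the pathway lists became 14 without the batch covariate, 1 after quantile normalization, 1 in batch 1 alone and 0 in batch 2 alone, both with fewer mice, and 7 to 11 without single mice. The 834 called genes of the table became 1152 without the batch covariate, 611 with a variance trend, 171 after quantile normalization, 90 in batch 1 alone, 0 in batch 2 alone and 538 (without filtered-air mouse 1) to 751 without single mice. The cause was not tested.

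Signs turned, with no call, in batch 1 alone for Csf2ra (0.017), Csf2rb (0.085), Csf2rb2 (0.078), Pparg (0.015), Il3ra (0.10) and Smad2 (0.016), and in batch 2 alone for Spi1 (-0.033), Csf2 (-0.012), Stat5b (0.034) and Cebpa (0.025). Without single mice they turned for Csf2ra (-0.066 to 0.035), Csf2rb (-0.070 to 0.0023), Csf2rb2 (-0.075 to 0.022), Pparg (-0.059 to 0.021), Il3ra (-0.074 to 0.012) and Stat5b (-0.028 to 0.030). After quantile normalization Cd36 kept its call and Cish, Csf1r, Stat3, Atf3, Fos, Skil and Tgfb2 lost theirs, in the same direction. All of these differences became smaller, that of Cd36 going from -0.46 to -0.37. The setting gives every mouse the same distribution of values. In values centred on the filtered-air mean it can itself shrink ozone differences, so a call lost there cannot decide whether the call is sound.

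Same-numbered mice are different animals, and no label says that a number marks a shared litter or day. For the numbers 1, 2, 3 and 4 the ozone and the filtered-air mouse were in different flow-sort batches. Deviations of same-numbered mice correlated above 0.1 in 4 of 6 pairs, not in all 6. These correlations cannot decide whether the mice belong together, and they were not treated as paired. Under a replicate block the count over the table was 853, over the pathway lists 12 and over the 10 genes 0, and Stat3 lost its call (adjusted p = 0.0646). Differences of genes with few reads, such as Csf2, are compressed and may be missed.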
